A study of Sus scrofa with 18 samples.

Results

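Fatty acid synthesis in the piglet retina was described through 3 enzymes, SCD, ELOVL6 and FASN, which were represented by 9 of the 24123 probe sets on an Affymetrix pig array. A probe set was taken as a member where the platform annotation gave it exactly 1 gene symbol and that symbol was one of the 3. SCD had 1 probe set, ELOVL6 had 4 and FASN had 4. All 9 passed the filter on dim probe sets, which left 16799 probe sets and 5710 named genes, and each enzyme was represented by its brightest probe set (Ssc.16159.1.S1_at for SCD, Ssc.1008.1.A1_at for ELOVL6 and Ssc.18175.1.A1_at for FASN).

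The retinas came from 18 male domestic piglets (Landrace crossed with Large White), taken at postnatal day 38. The piglets entered the study at 3 days of age and all received a pig milk replacer. The control group of 9 had the replacer at what the labels call a basal level, and the other 9 had it supplemented with sialyllactose, a milk sugar in which lactose carries sialic acid. No dose is given in the labels. Each piglet gave 1 array, and no litter or array batch is named.

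FASN, fatty acid synthase, joins acetyl and malonyl units into the saturated fatty acid palmitate. ELOVL6 lengthens palmitate to stearate in the endoplasmic reticulum, and SCD, stearoyl-CoA desaturase, puts the first double bond into these chains to make monounsaturated fatty acids. The genes of all 3 enzymes are classical targets of the sterol regulatory element binding proteins (SREBPs), which are held in the endoplasmic reticulum by INSIG proteins when sterols are plentiful. The retina needs a steady supply of fatty acids because photoreceptors renew their membrane discs throughout life.

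Genes of the neural retina had high levels, and genes of the pigment epithelium were also seen. Of the latter, TTR had a mean of 6.58 over all arrays (SD within diets 1.05) and SERPINF1 one of 4.65. TYRP1 and KRT8 lay under the filter on dim probe sets. The control and sialyllactose means of the rod arrestin SAG were 10.7 ± 0.10 and 10.6 ± 0.17, and those of GLUL, the glutamine synthetase of Mueller glia, were 10.6 ± 0.22 and 10.5 ± 0.31 (log2 RMA values, mean ± SD, n = 9 each). Fat tissue, which is rich in these enzymes, was checked because the orbit holds it. ADIPOQ and FABP4, which define adipocytes, had means of 0.862 and 0.883 over all arrays and lay under the level filter, as did CIDEA and RETN. The other 6 adipocyte markers on the array (LEP, RBP4, CFD, LPL, LIPE and PCK1) passed it, the brightest being RBP4 at a mean of 2.90. Of these, 5 of 6 had a higher mean with sialyllactose, where 56.7% of all tested genes had a lower one. The median difference of the 6 was 0.10, and LEP had a limma unadjusted p of 0.0339 (adjusted p = 0.773). The part of these markers in the diet differences of the enzymes was not tested. Any pair of arrays correlated at 0.981 to 0.992 over the tested probe sets. A bulk sample cannot separate fewer cells of a type from less RNA per cell.

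SCD was the member with the clearest difference between the diets. Its control values ran from 5.24 through a median of 5.42 to 5.75, and with sialyllactose from 5.02 through 5.25 to 5.52. The ranges overlapped, and 8 of the 9 supplemented retinas were under the median of the controls. The 3 lowest retinas, sialyllactose replicates 5, 6 and 9, had 5.14, 5.03 and 5.02, and the highest was control replicate 6 at 5.75. The group means were 5.47 ± 0.16 and 5.25 ± 0.17 (n = 9 each), a difference of -0.22 ± 0.08 (SE) with a 95% interval of -0.38 to -0.06, or 0.857-fold (0.768 to 0.957).

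For SCD, limma gave an unadjusted p of 0.00847 and an adjusted p of 0.745, and the exact two-sided permutation test of its group means gave p = 0.0133. The limma p was smaller in 189 other probe sets, and 6.3% of all tested probe sets had an unadjusted p under 0.05 (3.36% lower and 2.94% higher with sialyllactose), so SCD did not pass over the whole array. The difference was -0.20 with arrays centred on their medians, and without single arrays it ran from -0.26 to -0.19.

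ELOVL6 had a mean difference close to that of SCD with a much wider spread. Its brightest probe set ran from 5.24 through a median of 5.60 to 5.95 in control and from 4.62 through 5.36 to 5.84 with sialyllactose. The control values lay wholly inside the range of the sialyllactose piglets except for the highest, and 7 of 9 sialyllactose values were under the median of the controls. Within the sialyllactose group, replicate 1 was lowest at 4.62 and replicates 3 and 4 were both highest at 5.84. The means were 5.57 ± 0.24 and 5.36 ± 0.37 (n = 9 each), a difference of -0.22 with a 95% interval of -0.49 to 0.06 (limma unadjusted p = 0.120, adjusted p = 0.831, exact permutation p = 0.163). Without sialyllactose replicate 1 the difference was -0.12, and without sialyllactose replicate 3 it was -0.28. The SD within diets, 0.31, was higher than in 96.2% of the tested probe sets, whereas SCD, at 0.167, stood at the 58.3 percentile and FASN, at 0.124, at the 27.2 percentile.

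FASN had nearly the same mean on both diets. Its values ran from 5.74 through a median of 5.95 to 6.20 in control and from 5.80 through 5.91 to 6.05 with sialyllactose, so the sialyllactose piglets lay inside the control range. The means were 5.93 ± 0.16 and 5.92 ± 0.08 (n = 9 each), a difference of -0.01 with a 95% interval of -0.14 to 0.11, or 0.907-fold to 1.08-fold (limma unadjusted p = 0.823, adjusted p = 0.988, exact permutation p = 0.817). The sign of this small difference turned when arrays were centred on their medians (0.004). Whether FASN differed from SCD in its response was not tested.

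**Figure D1:**
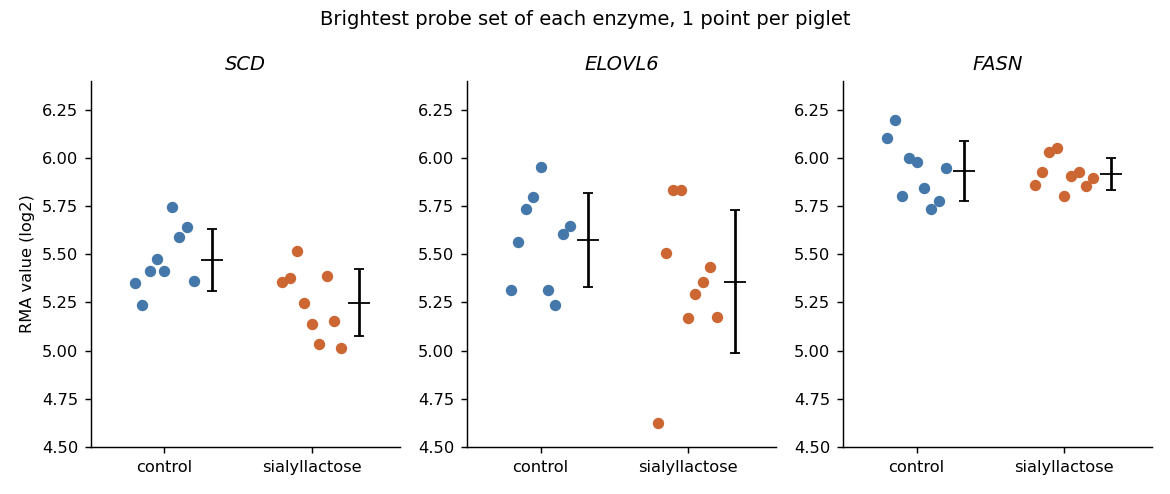
RMA values (log2) of the brightest probe set of SCD, ELOVL6 and FASN, with 1 point per piglet in order of replicate number, 9 per diet, and the group mean with its SD as a bar beside the points. The sialyllactose mean of SCD is 5.25 against 5.47 in control, ELOVL6 spreads most, with 1 sialyllactose piglet at 4.62, and the FASN means are 5.92 and 5.93.

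The other probe sets of ELOVL6 had smaller differences than the brightest one. With mean levels of 4.25, 3.08 and 2.66, they differed by -0.10 (95% interval -0.24 to 0.03), -0.02 (-0.16 to 0.11) and -0.03 (-0.19 to 0.13). All 4 had a lower mean with sialyllactose, as had 53.4% of all tested probe sets. Over the 18 retinas, after the diet means were taken off, they correlated with the brightest probe set at r = 0.662, 0.274 and 0.222, so that only the second brightest followed it clearly. The mean over the 4 probe sets differed by -0.09.

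The other probe sets of FASN lay much lower, with means of 2.69, 1.87 and 1.81 where the lowest tested mean was 1.48. Their differences were 0.002, 0.02 and -0.02, and the 95% interval of each lay within -0.17 and 0.19. They followed the brightest FASN probe set weakly (r = 0.348, 0.139 and 0.107, n = 18 for each). For SCD the platform annotation gave no other probe set against which its difference could be set.

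**Figure D2:**
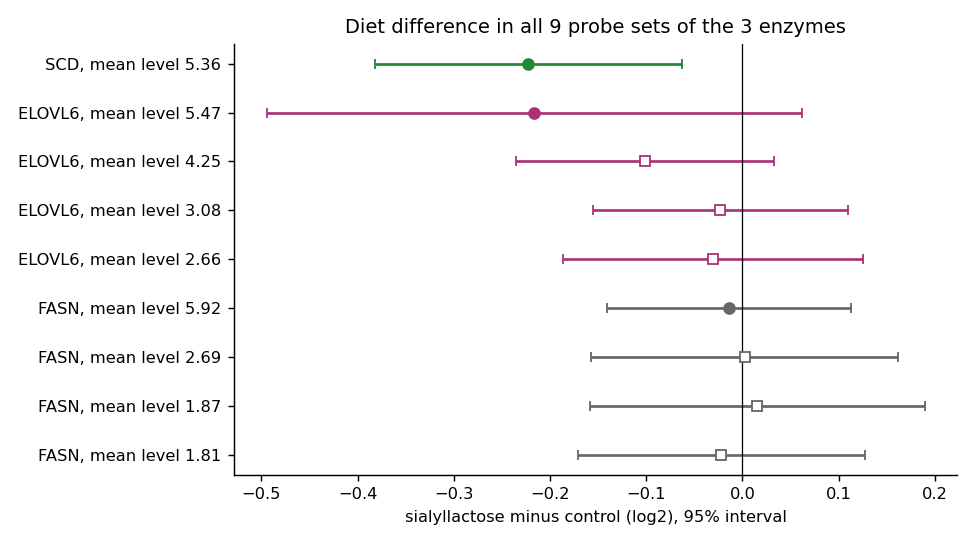
Difference of diet means, sialyllactose minus control (log2), in each of the 9 probe sets, with the 95% interval from limma as a bar. Filled circles are the brightest probe set of each gene and open squares the others, labelled by the mean level over 18 arrays. The SCD interval (-0.38 to -0.06) does not include 0, and the intervals of the other 8 probe sets do.

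No pair of the 3 enzymes passed the test of co-variation over all retinas without a replicate block. Co-variation was measured on each array's deviation from its diet mean, with permutation within diets, over 3 pairs. SCD and ELOVL6 had a Pearson r of 0.0335 (permutation p = 0.901, adjusted p = 0.901) and a Spearman rho of 0.164 (permutation p = 0.526, adjusted p = 0.526). ELOVL6 ranked 2350 of 5709 genes in likeness to SCD. SCD and FASN had r = -0.303 (p = 0.228, adjusted p = 0.341) and rho = -0.30 (p = 0.248, adjusted p = 0.372), also by permutation. ELOVL6 and FASN had r = 0.379 (p = 0.0836, adjusted p = 0.251) and rho = 0.383 (p = 0.122, adjusted p = 0.366), and FASN ranked 304 of 5709 in likeness to ELOVL6. With the replicate number as a block, this last pair had r = 0.702 and a permutation adjusted p of 0.00684, though nothing in the labels makes the numbers pair piglets.

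Without the 2 retinas farthest from the median of the first-named enzyme, r was -0.0627 for SCD and ELOVL6, -0.434 for SCD and FASN and 0.328 for ELOVL6 and FASN. The first of these relations therefore had no stable sign.

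SCD and FASN ran against each other in control retinas and not in sialyllactose retinas. In control, r was -0.769 and rho -0.750 (n = 9, exact permutation p = 0.0167 and 0.0255). The control retinas with the most FASN, replicates 2 and 1 at 6.20 and 6.10, had the least SCD, 5.24 and 5.35. With sialyllactose, r was 0.471 and rho 0.550 (n = 9, exact permutation p = 0.206 and 0.133). The difference of r between diets was 1.24 (exact permutation of 48620 label splits, p = 0.00555, adjusted p = 0.0167 over the 3 pairs), a test chosen after the within-diet values had been seen.

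The first principal component of the deviations, which carried 14.4% of their variance, moved with both enzymes in control (r = -0.771 for SCD and 0.673 for FASN). Its largest loading was that of control replicate 2 (0.716), followed in size by control replicate 6 (-0.366), so the component leaned strongly on 1 array. With the component taken off, r between SCD and FASN was -0.530 in control and 0.319 with sialyllactose, and the exact permutation p of the difference was 0.103. ELOVL6 and FASN had r = 0.166 in control and 0.769 with sialyllactose (exact permutation p = 0.666 and 0.0144, n = 9 each), and SCD and ELOVL6 had -0.354 and 0.271 (exact p = 0.348 and 0.491). Neither of these pairs differed between diets by the test (exact permutation p = 0.138 and 0.252, adjusted p = 0.207 and 0.252).

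**Figure D3:**
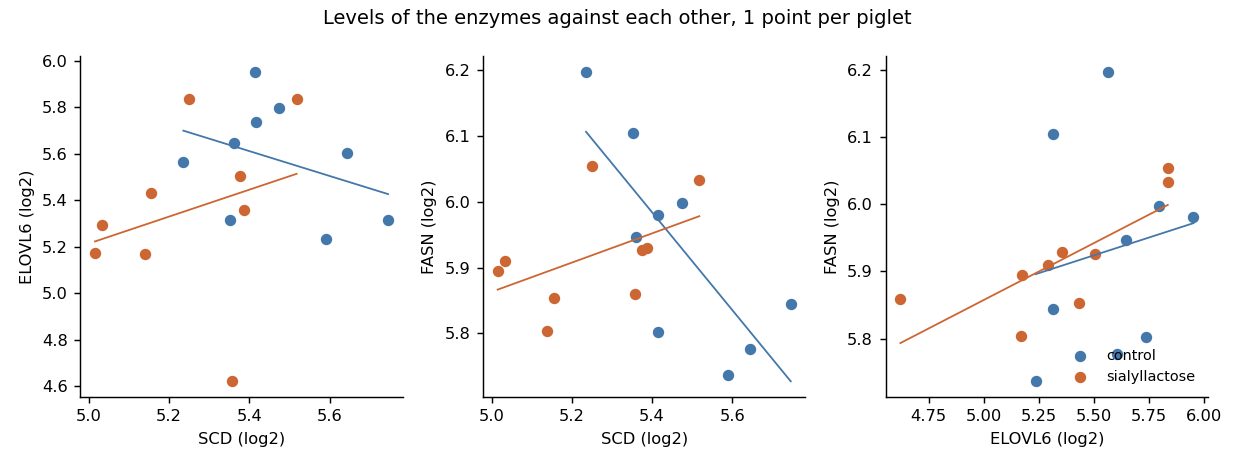
RMA values (log2) of the 3 enzymes against each other, 1 point per piglet, with a least-squares line per diet. In control piglets FASN is lower where SCD is higher (r = -0.769, n = 9), and with sialyllactose the slope has the other sign (r = 0.471, n = 9).

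FASN passed a test of relation to a property of the whole array. The median over all tested probe sets varied only from 3.85 to 3.91, yet FASN followed it at r = 0.791 and rho = 0.744 over 18 arrays (permutation p = 0.000240 and 0.000800, adjusted over 6 relations p = 0.00144 and 0.00480). Without control replicates 2 and 7, r was 0.673, and within diets it was 0.947 in control and 0.458 with sialyllactose. For SCD, r with the array median was -0.382 and for ELOVL6 0.000135. SCD had r = -0.551 and rho = -0.542 with the first principal component (permutation p = 0.0150 and 0.0250, adjusted p = 0.0449 and 0.0750). That relation was not computed without control replicate 2, which had the largest loading on the component (0.716). Both array measures are computed from all tested probe sets, so other genes can follow them too. The share of genes that do was not measured, so these values do not set the enzymes apart from other genes. The part of these array measures in the relations of SCD and FASN to other genes was not tested beyond the values given with arrays centred or with the component taken off.

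CAV1 and INSIG1 had the highest r with SCD of 5709 genes. CAV1, caveolin-1 of the cholesterol-rich membrane pits called caveolae and also a gene of the Mueller glia list, had r = 0.819 and rho = 0.779, and INSIG1, the sterol-sensing anchor that retains SREBPs, had r = 0.773 and rho = 0.713 (n = 18, diet means taken off). INSIG1 had r = 0.845 in control and 0.707 with sialyllactose, 0.733 without the 2 most distant SCD retinas and 0.655 with the first principal component taken off. For CAV1 the corresponding values were 0.815, 0.826, 0.804 and 0.759. LOC106504372, the ubiquitin ligase gene MYCBP2 and the Rab exchange factor gene RAB3IL1 came next, at r = 0.738, 0.706 and 0.703. The lowest were the pseudouridine synthase gene RPUSD1 at -0.771 and the spliceosome gene SNRPB at -0.754. These genes were picked as the extremes of 5709. After adjustment over all of them no gene passed (permutation adjusted p = 0.452 for CAV1 and INSIG1; 0 genes, 0% called, and 7.58% at an unadjusted p under 0.05).

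Cholesterol synthesis genes mostly had a positive r with SCD over retinas. Of 11 tested genes of that list, 10 had a positive r with SCD, where 45.9% of all genes did. The median r of the 11 was 0.187, against -0.0308 over all genes. HSD17B7, FDPS, ACAT2 and FDFT1 were positive by only 0.031 to 0.086. Each of them turned negative when 1 certain array was left out (lowest r from -0.184 to -0.015). MSMO1, a sterol methyl oxidase, had r = 0.615 and rho = 0.690, and CYP51, the lanosterol demethylase, r = 0.613 and rho = 0.701. SC5D, which forms a sterol ring double bond, had r = 0.446 and rho = 0.451, and HMGCS1, an early enzyme of the pathway, r = 0.399 and rho = 0.298. For HMGCS1, r was 0.220 without control replicate 2. TM7SF2, a sterol reductase, was the exception at r = -0.481. Over all genes none of MSMO1, CYP51, SC5D, HMGCS1 and TM7SF2 passed (permutation adjusted p from 0.553 to 0.742). With the first principal component taken off, 8 of 11 were positive, and r was 0.336 for MSMO1, 0.391 for CYP51, 0.264 for SC5D and 0.0890 for HMGCS1. The choice of genes to name here followed a look at their values.

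With FASN the same cholesterol genes were mostly of the opposite sign. Of the 11, 3 had a positive r, where 56.2% of all genes did, with a median r of -0.240. MSMO1 had r = -0.604 with FASN, HMGCS1 -0.549 and TM7SF2 0.550. Without control replicate 2, r was -0.389 for MSMO1 and -0.284 for HMGCS1. With arrays centred, 3 of the 11 were positive and the 3 genes had r = -0.644, -0.578 and 0.486. ELOVL6 had a positive r with 7 of the 11, where 50.3% of all genes did, and a median r of 0.0821.

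FASN had COASY as its closest gene. COASY, which makes coenzyme A, the carrier of acyl groups, had r = 0.794 and rho = 0.680 with FASN, and 0.762 with arrays centred. SH3GL1, an endophilin, PPIE, a peptidyl-prolyl isomerase, PMEPA1 and RRBP1, a ribosome-binding protein of the endoplasmic reticulum, had r from 0.763 to 0.775. PPIE had r = 0.940 in control and 0.143 with sialyllactose, and RRBP1 had 0.922 and 0.469. Without control replicates 2 and 7, r was 0.614 for COASY and 0.584 for PPIE. For SH3GL1, PMEPA1 and RRBP1 it was then 0.727, 0.728 and 0.754. The lowest was HNRNPUL1, a nuclear RNA-binding protein, at r = -0.853 and rho = -0.812, followed by KIAA1429 at -0.747. HNRNPUL1 kept r = -0.889 with arrays centred and had -0.913 in control and -0.588 with sialyllactose. Its permutation adjusted p over all genes was 0.0571, and it did not pass. Its unadjusted permutation p, 1.0e-05, was the lowest that the number of permutations allowed. A single gene at that limit could not fall under 0.05 after adjustment, so the test could not decide on HNRNPUL1. Of all genes 0% were called (8.46% at an unadjusted p under 0.05).

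Among lipid genes, the highest r with FASN belonged to ACADVL, CLU and HADH. Of 11 other genes of fatty acid synthesis and its substrate supply, 8 had a positive r with FASN, where 56.2% of all genes did. The median r of the 11 was 0.253, against 0.0554 over all genes. MID1IP1, an activator of acetyl-CoA carboxylase, had r = 0.591, and ACSS2, which makes acetyl-CoA from acetate, had 0.504. Without control replicate 2 these were 0.338 and 0.199. Of the 15 tested regulators 12 were positive, with SCAP, the escort of SREBPs, at 0.634 and SREBF2, one of the SREBPs, at 0.532. ACADVL and HADH, enzymes of mitochondrial fatty acid oxidation, had r = 0.718 and 0.692, and 0.688 and 0.630 with arrays centred. The oxidation list as a whole stood near the background, with 15 of 26 genes positive, a median r of 0.0807 and ETFB lowest at -0.462. Of 15 genes of fatty acid uptake and binding 14 were positive, with the lipoprotein CLU at 0.713 and the fatty acid binding protein FABP7 at 0.542. CLU is also in the Mueller glia list and FABP7 in the astrocyte list. The scores of these marker lists had r = 0.181 and 0.143 with FASN. The part of glial cells in the FASN relations was not tested. Centring the arrays left 8 of 11 synthesis genes, 10 of 15 regulators and 12 of 15 uptake genes positive. SREBF2 had r = 0.283 without control replicates 2 and 7. None of these genes passed over all genes (permutation adjusted p at least 0.359), and the choice of which to name here followed a look at their values.

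ELOVL6 had EIF2B4, a subunit of the translation initiation factor eIF2B, as its closest gene at r = 0.801 and rho = 0.664. Without sialyllactose replicates 1 and 3, r was 0.616. HIRIP3, CD99, ADAP1 and GALT, the galactose-1-phosphate uridylyltransferase, followed at r from 0.703 to 0.714. GALT had r = 0.0727 in control and 0.919 with sialyllactose. Over all retinas it had 0.433 without sialyllactose replicate 1 and 0.343 without sialyllactose replicates 1 and 3, so that its place rested on those retinas. The lowest were DERL1, which takes part in the removal of misfolded proteins from the endoplasmic reticulum, at -0.735 and RUVBL2 at -0.721. None passed over all genes (permutation adjusted p = 0.886, 0% called, 3.84% at an unadjusted p under 0.05). A positive r with ELOVL6 was found in 50.3% of all genes. Of the other lipid genes 55 of 109 had one, with a median of 0.0081, and of the 15 regulators 13 did, led by SREBF2 at 0.405.

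**Figure D4:**
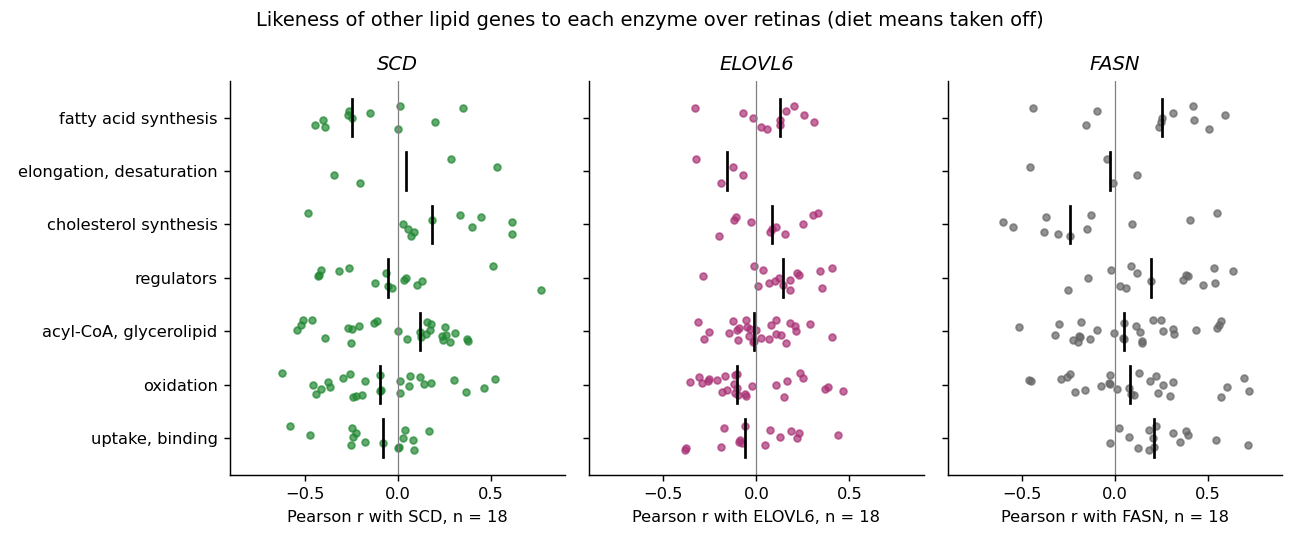
Pearson r of each other tested gene of 7 lipid lists with SCD, ELOVL6 and FASN over 18 retinas after the diet means were taken off, 1 point per gene (a gene in 2 lists appears in both), with the list median as a bar. Cholesterol synthesis genes lie mostly to the right of 0 for SCD (median 0.187) and to the left for FASN (median -0.240).

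Markers of cell types and states were set against the enzymes in 42 relations of list scores, and none passed the adjusted permutation test. Interferon response genes came nearest for SCD. All 15 tested interferon genes had a positive r with SCD, where 45.9% of all genes did, and the list score had r = 0.538 and rho = 0.612 (permutation p = 0.0282 and 0.00759, adjusted p = 0.442 and 0.305). It was 0.463 without control replicate 6 and sialyllactose replicate 3, and 0.610 and 0.516 within control and sialyllactose. These genes also had a positive r with ELOVL6 in 15 of 15, where 50.3% of all genes did, with a list score at r = 0.315 (permutation adjusted p = 0.759). Genes of 1 response can rise and fall together between retinas, so neither count is of independent genes. The mean level of the interferon genes on an array lay between 2.44 and 3.90 in control and between 2.46 and 4.65 with sialyllactose.

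For ELOVL6 the nearest list was the pigment epithelium, at r = -0.546 and rho = -0.577 (permutation p = 0.00889 and 0.0145, adjusted p = 0.373 and 0.305). Of its 9 genes 3 were positive (SLC45A2 at 0.352, BEST1 at 0.190 and MITF at 0.121), where 50.3% of all genes were. SERPINF1 and TTR, both abundant in pigment epithelium, had the lowest r, -0.633 and -0.533. They also had the widest spread within diets of the list (SD 0.630 and 1.05), so they weighed most in its score, a plain mean. The mean level of that list lay between 3.65 and 4.42 in control and between 3.84 and 4.27 with sialyllactose. The adipocyte list, with 6 of 6 positive, had r = 0.459 with ELOVL6 (permutation p = 0.0437, adjusted p = 0.442), and its mean level ranged from 1.93 to 2.25 and from 2.12 to 2.34. The part of these cell types in the ELOVL6 values was not tested.

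The list scores of Mueller glia and astrocyte markers had no positive relation to SCD between retinas. Of 13 Mueller glia genes 11 and of 6 astrocyte genes 4 had a lower mean with sialyllactose, where 56.7% of all tested genes did. Endothelium (10 of 12), interneuron (5 of 6) and microglia (4 of 5) genes were also mostly lower. Cone (0 of 4), adipocyte (1 of 6) and muscle (1 of 4) genes were not. With arrays centred on their medians, 46.6% of all genes were lower. In that setting 10 of 13 Mueller glia, 4 of 6 astrocyte and 8 of 12 endothelium genes were lower. So were 3 of 6 interneuron and 3 of 5 microglia genes, and the cone, adipocyte and muscle counts did not change. The Mueller glia and astrocyte list scores had r = -0.0796 and -0.495 with SCD (permutation adjusted p = 0.970 and 0.442). Single genes went both ways, from CAV1 at 0.819 to the glial filament gene GFAP at -0.574. A positive r with SCD was found in 7 of 13 Mueller glia genes and 2 of 6 astrocyte genes, against 45.9% of all genes. The part of glial cells in the SCD difference was not tested.

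No other lipid gene passed the diet test over the whole array. In the 7 lists 109 genes other than the 3 enzymes were tested. Of these, 71 had a lower mean with sialyllactose and 38 a higher one (65.1% lower, against 56.7% of all tested genes), with a median difference of -0.02. The median difference over all tested genes was -0.01. With arrays centred on their medians 59 of 109 were lower, against 46.6% of all genes. None had a limma adjusted p under 0.05 (0% of the array), and 5 had an unadjusted p under 0.05, all lower, where 5.62% of tested genes passed that threshold (3.47% lower and 2.15% higher).

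Those 5 genes were NR1H3, PRKAA1, CDS2, FABP5 and MGLL. NR1H3, the liver X receptor alpha that induces SREBF1 and SCD, had means of 2.28 ± 0.26 in control and 2.06 ± 0.13 with sialyllactose, near the floor of the array, with 9 of 9 supplemented retinas under the median of the controls. FABP5, a fatty acid binding protein, was at 4.53 ± 0.32 and 4.23 ± 0.28. CDS2, which makes CDP-diacylglycerol for phosphatidylinositol, was at 6.72 ± 0.10 and 6.59 ± 0.07. PRKAA1, a catalytic subunit of the energy sensor AMPK, was at 1.94 ± 0.14 and 1.79 ± 0.17, and MGLL, monoglyceride lipase, at 2.61 ± 0.24 and 2.42 ± 0.16 (log2, n = 9 each). For PRKAA1, CDS2 and MGLL the second tested probe set had the other sign. The limma adjusted p lay between 0.753 and 0.773 in all 5.

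A lower mean with sialyllactose was found in 56.7% of all tested genes, whose median difference was -0.01. In the list of fatty acid synthesis and substrate supply, 9 of 11 genes had a lower mean and 2 a higher one, with a median difference of -0.04. Besides SCD, the smallest p belonged to OXSM, the ketoacyl synthase of the mitochondrial fatty acid pathway, at 3.04 ± 0.38 in control and 2.76 ± 0.28 with sialyllactose (limma adjusted p = 0.781). SCD5, a second desaturase named here after its values were seen, differed by -0.07 (95% interval -0.19 to 0.04). Of the regulators 12 of 15 were lower, with a median difference of -0.02, and INSIG1, the regulator with the highest r with SCD, differed by -0.09 (-0.30 to 0.11). With arrays centred, 9 of 11 genes of fatty acid synthesis (median -0.02) and 10 of 15 regulators (median -0.007) were lower. In that setting 46.6% of all genes were lower.

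Cholesterol synthesis genes were evenly split, with 6 of 11 lower (54.5%, against 56.7% of all tested genes) and a median difference of -0.001. The smallest p-values there belonged to HSD17B7, a sterol ketoreductase, at 3.16 ± 0.11 and 3.28 ± 0.19, and TM7SF2, at 3.93 ± 0.19 and 4.01 ± 0.13. With arrays centred, 3 of these 11 were lower, against 46.6% of all genes. MSMO1 and CYP51, which had the highest r with SCD in this list, differed by -0.05 and -0.001.

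Fatty acid oxidation had 19 of 26 genes lower (73.1%, against 56.7% of all tested genes, median -0.04). With arrays centred, 17 of the 26 were lower (median -0.02), against 46.6% of all genes. The carnitine carrier SLC25A20 was at 3.54 ± 0.15 and 3.38 ± 0.18 and ACADVL at 4.15 ± 0.15 and 4.01 ± 0.17. Fatty acid uptake and binding had 10 of 15 lower (median -0.04), and 9 of 15 with arrays centred (median -0.02). In acyl-CoA activation and glycerolipid synthesis 13 of 27 were lower (median 0.001), and the lipid droplet coat gene PLIN2 was at 3.71 ± 0.31 and 3.50 ± 0.22. Elongation and desaturation of polyunsaturated fatty acids had 2 of 4 lower, with HSD17B12, a reductase of the elongation cycle, at 6.08 ± 0.06 and 6.11 ± 0.14 and FADS1, a desaturase, at 2.42 ± 0.16 and 2.46 ± 0.21 (log2, n = 9 each). None of these genes passed the limma test.

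**Figure D5:**
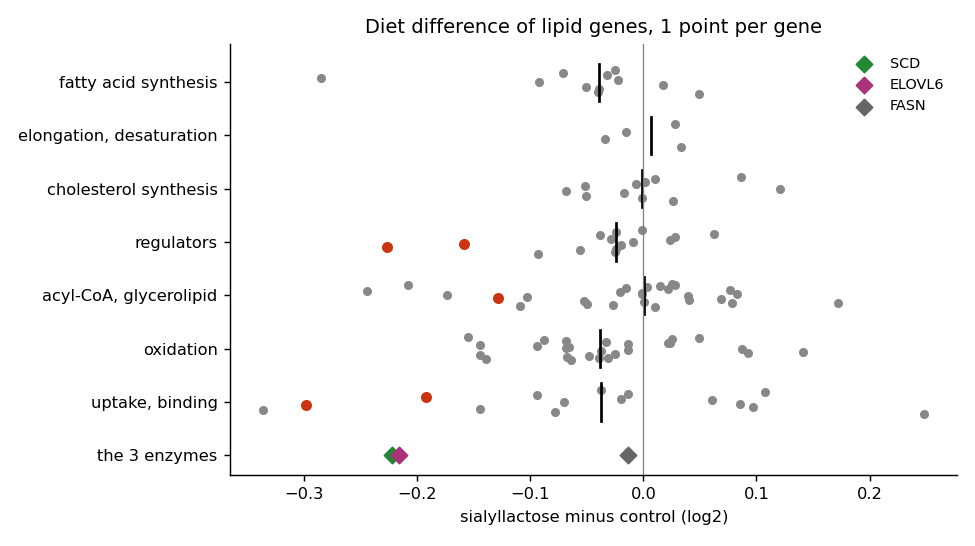
Difference of diet means, sialyllactose minus control (log2), of the other tested genes of 7 lipid lists, 1 point per gene, with the list median as a bar. Red points have a limma unadjusted p under 0.05 (5 genes), and diamonds are the 3 enzymes, at -0.22 for SCD and ELOVL6 and -0.01 for FASN.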

How the data were processed

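The values used are the deposited log2 RMA values, 1 for each array and probe set. The software named is Affymetrix Expression Console, with RMA, per the submitters' processing notes, and versions and settings are not given in the sources used here. RMA values carry no detection call and understate differences of dim probe sets. Samples were grouped by title.

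From these values, 124 control probe sets and then the 30% with the lowest mean (7200) were left out. Diets were compared with limma 3.58.1 in R 4.3.3 (lmFit, eBayes) on 18 arrays with diet as the sole term, adjusting by Benjamini-Hochberg over 16799 probe sets and a threshold of 0.05. Correlations used deviations from diet means with 100000 permutations within diets, or 362880 exact pairings within 1 diet. A gene was its brightest tested probe set. Tested on simulated data of 16799 probe sets for the diet comparison, sialyllactose minus control, the limma step recovered 32.8% of probe sets changed 1.19-fold, 91.0% at 1.41-fold and 98.5% at 2-fold.

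The rule for named genes took every probe set of the members, lipid list genes with an unadjusted p under 0.05 (at least 2 per list by smallest p), and the 5 highest and 2 lowest genes in r with each member. The members and lists were chosen with earlier results of these data known. The labels do not say which replicates share a litter or day. Same-numbered arrays of the diets had correlations from -0.113 to 0.164, over 0.1 in 3 of 9. The number of arrays limits the precision. No coordinates or sequences are given, since no build for the array is named in the sources used here.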

Additional observations from a re-analysis of the deposited data

Results flagged for a closer look

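The r between SCD and FASN differed between the diets by 1.24, from -0.769 in control to 0.471 with sialyllactose, by an exact permutation of the diet labels (adjusted p = 0.0167 over 3 pairs, n = 9 each). With the first principal component taken off the difference was 0.849 (exact permutation p = 0.103). Its cause was not tested.

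In 44 groups of 9 arrays, 1 array stood apart from the others by Dixon's test in 3, where chance gives about 1 in 20 groups. HSD17B7 was highest in sialyllactose replicate 2 at 3.71 (next highest 3.37), PLIN2 was highest in control replicate 2 at 4.43 (next 3.82), and FABP5 was lowest in control replicate 7 at 3.85 (next 4.36). No such array was found for any of the 9 probe sets of the 3 enzymes.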

How the results depend on the processing

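The SCD and ELOVL6 differences kept their sign and stayed short of the adjusted threshold in all 10 alternatives and all 18 fits without 1 array (SCD -0.25 to -0.20, adjusted p 0.563 to 0.808, and -0.26 to -0.19 without single arrays; ELOVL6 -0.22 to -0.09, adjusted p 0.732 to 0.877, and -0.28 to -0.12). The FASN difference turned to 0.00381 with centred arrays and 0.00580 after a second quantile normalization, and ran from -0.0383 (without control replicate 7) to 0.0194 (without control replicate 2). No probe set passed the adjusted threshold in any alternative. At an unadjusted p under 0.05 there were 1059, 697 with a 50% filter, 1471 with no filter, 918 by exact rank-sum tests and 929 to 1233 without single arrays. Centring moved the split at that threshold from 565 lower and 494 higher to 342 and 790, a second quantile normalization to 479 and 567, no filter to 669 and 802, and the 50% filter to 448 and 249. The number of other lipid genes at that threshold was 5, and 3 with a 50% filter or centred arrays, 9 with the replicate block, and 2 to 8 without single arrays (2 without sialyllactose replicate 7, 3 without control replicate 1 or 5, 8 without control replicate 3).

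The labels do not pair samples by replicate number. Each array was compared with the 9 arrays of the other diet, of which 1 had its own number. In 6 of 18 arrays that same-numbered array correlated best, more than an even choice among the 9 would give. Whether the numbers mark something that arrays share was not tested. With the replicate block, ELOVL6 and FASN had r = 0.702 (permutation adjusted p = 0.00684, a p that treats the blocked values as free), and ELOVL6 had an unadjusted limma p of 0.0488 (adjusted p = 0.732). Without single arrays r ran from -0.169 to 0.183 for SCD and ELOVL6 (lowest without sialyllactose replicate 3). It ran from -0.466 to -0.121 for SCD and FASN and from 0.298 to 0.507 for ELOVL6 and FASN. The difference of r between diets for SCD and FASN, added after the data were seen, ran from 1.0 to 1.37 without single arrays and was 0.849 with the first principal component taken off (exact permutation p = 0.103). The causes were not tested.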
